A study of Mus musculus with 24 samples.

Results

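Constitutive proteasome subunit genes were followed in splenic conventional dendritic cells (cDC) of the mouse 12 h after an injection of CpG-A, a synthetic DNA that activates the DNA sensor Tlr9. The genes were those whose symbol is Psma, Psmb, Psmc or Psmd followed by a number, without the immune beta subunits Psmb8, Psmb9 and Psmb10, and a gene with several probe sets was represented by the one with the highest mean. This gave 36 genes, carried by 42 probe sets, of the 19938 genes on the array. A gene was tested if it lay over the array's median of annotated probe sets on 3 or more of the 24 arrays. This held for 34 members and for 11228 genes in all. Each of these members lay over that median on 23 or 24 arrays, so none passed only through one treatment. The other 2, Psma8 and Psmb11, did so on 0.

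Messenger RNA was measured on 24 expression arrays in 8 groups of 3. The groups were CD8+ cDC of NOD mice after CpG-A, CD8+ cDC of NOD mice after PBS, CD8+ cDC of B6 mice after CpG-A, CD8+ cDC of B6 mice after PBS, and the same 4 groups of CD11b+ cDC. All mice were female and 8 to 10 weeks old, NOD being the inbred NOD/ShiLt strain that develops autoimmune diabetes and B6 the C57BL/6 control strain, and no transgene or engineered allele is named for any group. CD11c+ cells from digested spleen were sorted by CD8 or CD11b, and the labels do not say whether a replicate was 1 mouse or a pool, so the spread behind the p-values is that between samples and may be partly technical. Levels and differences are on the log2 scale throughout.

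The proteasome degrades proteins that carry ubiquitin chains and supplies most of the peptides that MHC class I molecules present to CD8 T cells, a task for which CD8+ cDC are specialised when the antigen was taken up from other cells. Its core is a barrel whose outer alpha rings form the gate and whose inner beta rings hold the proteolytic sites, and its regulatory cap has a base, with a ring of ATPases that unfolds the substrate and feeds it into the core, and a lid that removes the ubiquitin chain. Interferon induces alternative catalytic subunits that take the place of the constitutive ones in newly built cores, and the transcription factor Nfe2l1 is known to raise the genes of core and cap together when proteasome capacity falls short.

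The arrays matched their sort labels. Cd8a averaged 11.06 in CD8+ and 5.44 in CD11b+ cDC of PBS-treated NOD mice, and 11.43 and 6.96 in B6 mice, while Itgam, which encodes CD11b, averaged 4.86 and 8.78 in NOD and 5.07 and 9.0 in B6 mice. Markers of other cells moved with CpG-A, given here as the log2 of the summed levels of each list. The 5 NK cell markers, all measured, lay at 12.8 to 13.8 in B6 CD11b+ cDC after CpG-A, against 8.90 to 10.1 after PBS, and at 9.53 to 9.72 in NOD CD11b+ cDC after CpG-A, against 7.29 to 7.63 after PBS. In CD8+ cDC they lay at 8.77 to 9.47 after CpG-A and 7.86 to 8.33 after PBS in NOD mice, and at 8.85 to 9.48 and 8.08 to 8.59 in B6 mice. Of this list, Ncr1 and Klrb1c stayed at or below the array median on at least 1 array of every group but the B6 CD11b+ ones, where Ncr1 exceeded it throughout and Klrb1c did so after CpG-A only. The 5 red pulp macrophage markers lay at 11.5 to 11.9 after CpG-A and 10.6 to 10.9 after PBS in NOD CD8+ cDC, at 11.2 to 11.8 and 10.4 to 11.5 in B6 CD8+ cDC, at 10.9 to 11.1 and 10.0 to 10.1 in NOD CD11b+ cDC, and at 10.9 to 11.7 and 10.8 to 11.7 in B6 CD11b+ cDC. The 4 neutrophil markers lay at 8.15 to 9.42 after CpG-A and 7.33 to 7.58 after PBS in NOD CD8+ cDC, and at 7.97 to 8.43 and 7.16 to 7.39 in B6 CD8+ cDC. In CD11b+ cDC they lay at 7.72 to 9.04 after CpG-A and 7.72 to 8.71 after PBS in NOD mice, which overlapped, and at 8.04 to 8.42 and 6.98 to 7.64 in B6 mice, which did not. Ly6g and Mpo of this list stayed at or below the array median on at least 1 array of every group. The 4 plasmacytoid dendritic cell (pDC) markers, all measured, lay at 11.6 to 11.9 after CpG-A and 10.3 to 10.7 after PBS in NOD CD8+ cDC, at 11.7 to 12.0 and 10.3 to 10.4 in B6 CD8+ cDC, at 11.2 to 11.6 and 9.47 to 9.74 in NOD CD11b+ cDC, and at 11.7 to 11.9 and 9.66 to 9.77 in B6 CD11b+ cDC. Of this list Bst2, which interferon is known to induce, rose in all 4 kinds of cells, by 2.30, 2.67, 2.94 and 3.00 in NOD CD8+, B6 CD8+, NOD CD11b+ and B6 CD11b+ cDC, while Ccr9 fell by 0.67 and 1.72 in NOD and B6 CD8+ cDC, Siglech fell by 1.41 in B6 CD8+ cDC, and Tcf4 passed in none. Alas2, the only measured one of 4 erythroid markers, rose by 0.44 in B6 CD8+ and 0.51 in NOD CD11b+ cDC. These 5 genes are named after their values were seen. Markers of the sorted subsets themselves fell, 6 and 8 of 9 CD8+ cDC markers in NOD and B6 CD8+ cDC and 4 and 5 of 7 CD11b+ cDC markers in NOD and B6 CD11b+ cDC. None of the 3 measured T cell markers passed in any kind of cells, and of the 3 measured B cell markers 1, 1, 0 and 1 fell in NOD CD8+, B6 CD8+, NOD CD11b+ and B6 CD11b+ cDC. The part of these cells in the results that follow was not tested, and in sorted populations more RNA of a gene per cell and more cells that express it cannot be told apart.

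Proteasome subunit genes rose after CpG-A in all 4 kinds of cells. In NOD CD8+ cDC 18 of 34 members rose and 0 fell, where 15.1% of all tested genes rose and 25.5% fell. In B6 CD8+ cDC 22 rose and 1 fell, where 21.1% of all tested genes rose and 36.6% fell. In NOD CD11b+ cDC 8 rose and 0 fell, where 9.7% of all tested genes rose and 5.73% fell, and in B6 CD11b+ cDC 21 rose and 0 fell, where 15.9% rose and 23% fell. A gene was called where limma's adjusted p, over all tested genes of the comparison, was under 0.05. The median difference over the members was 0.30, 0.37, 0.23 and 0.33 in that order of cells, and over all tested genes it was -0.08, -0.10, -0.04 and -0.07, so the median member was higher and the median gene slightly lower after CpG-A.

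Averaged over the 34 genes, the log2 level was 9.32, 9.58 and 9.48 on the arrays of NOD CD8+ cDC after CpG-A, against 9.12, 9.21 and 9.27 after PBS. It was 9.35, 9.56 and 9.50 in B6 CD8+ cDC after CpG-A, against 9.20, 9.19 and 9.15 after PBS. In each of these cells every CpG-A array lay above every PBS array, and the first CpG-A array of each strain was the lowest of its group. In NOD CD11b+ cDC the mean was 9.21, 9.27 and 9.17 after CpG-A, against 8.78, 9.03 and 9.08 after PBS, and in B6 CD11b+ cDC it was 9.27, 9.35 and 9.25 after CpG-A, against 9.09, 9.01 and 8.92 after PBS. The groups did not overlap here either, and the first PBS array of NOD CD11b+ cDC stood below the other two. The same average over all 11228 tested genes was lower after CpG-A than after PBS, by group means, in 3 of the 4 kinds of cells, the exception being NOD CD11b+ cDC.

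**Figure D1:**
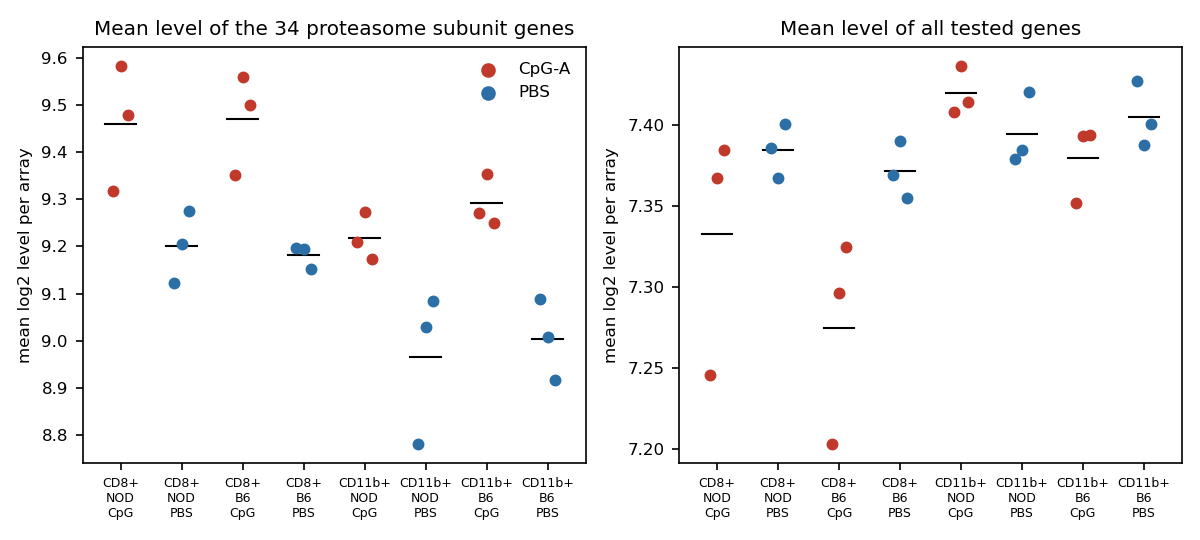
Mean log2 level per array of the 34 tested proteasome subunit genes (left) and of all 11228 tested genes (right) in the 8 groups, with CpG-A in red and PBS in blue. Each point is 1 array, horizontal lines mark group means of 3 arrays, and the 2 vertical axes differ in range. Left, the CpG-A arrays lie above the PBS arrays of the same cells in all 4 pairs of groups.

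The rise was shared by most members but was small for many of them. The difference was positive in all 4 kinds of cells for 26 of 34 members, where this held for 22.1% of all tested genes, and negative in all 4 for 1 member, the assembly chaperone gene Psmd5. Psma2, Psma4, Psma5, Psma7, Psmc6 and Psmd14 passed the test in all 4, that is 6 of 34 members, where 6.72% of all tested genes did so in the higher direction. Psmb1, Psmb2, Psmb3, Psmb5, Psmc3, Psmd5, Psmd6, Psmd9 and Psmd13 passed it as higher in none. Every CpG-A array exceeded every PBS array for 18 members in NOD CD8+ cDC and 24 in B6 CD8+ cDC, where 17.4% and 25% of all tested genes did, and for 21 in NOD CD11b+ and 23 in B6 CD11b+ cDC, where 16.2% and 20.4% did. The largest rises, 0.87 for Psma5 in NOD CD11b+ cDC and 0.86 for Psmd7 in B6 CD8+ cDC, amount to 1.82-fold and 1.81-fold. Psma5 has a second probe set, which gave 0.75 in NOD CD11b+ cDC.

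**Figure D2:**
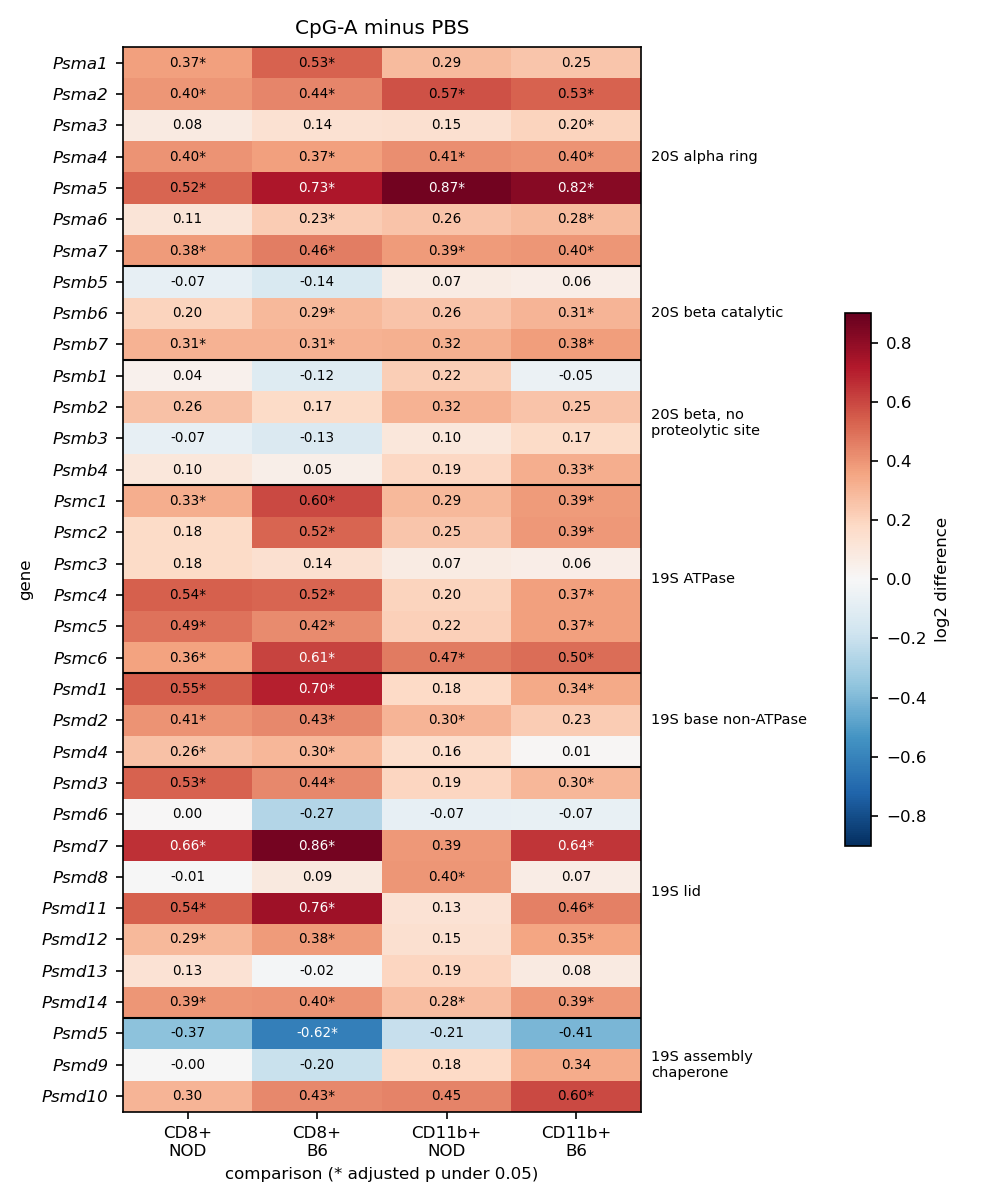
Log2 difference, CpG-A minus PBS, of each of the 34 tested genes in the 4 kinds of cells (3 arrays a group), with genes in rows by role and colour and number giving the difference. A star marks an adjusted p under 0.05. The alpha ring, the ATPases and part of the lid hold most of the stars, Psma5 and Psmd7 hold the darkest red, and Psmd5 is blue in every column.

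Of the calls, 9 of 18 in NOD CD8+, 17 of 23 in B6 CD8+, 3 of 8 in NOD CD11b+ and 14 of 21 in B6 CD11b+ cDC held under every alternative tried and with every array left out in turn, and no called difference changed sign under any of them. The calls that ended under at least 1 of them were those of Psma1, Psma2, Psmb7, Psmc1, Psmc6, Psmd2, Psmd4, Psmd12 and Psmd14 in NOD CD8+ cDC, of Psma2, Psma6, Psmb6, Psmb7, Psmd4 and Psmd10 in B6 CD8+ cDC, of Psma2, Psmc6, Psmd2, Psmd8 and Psmd14 in NOD CD11b+ cDC and of Psma3, Psma6, Psmb6, Psmb7, Psmc4, Psmd3 and Psmd10 in B6 CD11b+ cDC. In NOD CD11b+ cDC, where same-numbered arrays of the 2 treatments deviate together, a fit with the replicate number as a block called 16 members higher in place of 8. All tested genes split into 1242 higher and 861 lower with the block, against 1089 and 643 without it. Without the first PBS array of that comparison 3 members were called, without the first CpG-A array 4 and without the second 5. In NOD CD8+ cDC a fit of only the 6 arrays compared called 10 members in place of 18. It called 1169 of all tested genes higher and 1415 lower, against 1700 and 2867. Centring each array on the median of the tested genes, added after the data were seen, shifted the median of all genes by 0.146, 0.246 and 0.122 in NOD CD8+, B6 CD8+ and B6 CD11b+ cDC and called 27, 27 and 26 members higher there, and 15 in NOD CD11b+ cDC. All tested genes split into 2370 higher and 1910 lower in NOD CD8+ cDC under that centring, against 1700 and 2867 without it, into 4033 and 2778, against 2370 and 4105, in B6 CD8+ cDC, and into 2309 and 1909, against 1782 and 2582, in B6 CD11b+ cDC. In NOD CD11b+ cDC, centring on the median of all probe sets gave 1117 higher and 391 lower, against 1089 and 643. In either direction that centring called 13, 18, 7 and 15 members in NOD CD8+, B6 CD8+, NOD CD11b+ and B6 CD11b+ cDC. The main fit called 18, 23, 8 and 21. Quantile normalization called 16, 20, 6 and 17. All tested genes called numbered 4206, 6379, 1508 and 4139 under the centring and 4488, 6567, 1837 and 4370 under quantile normalization.

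The alpha ring, which gates access to the core and contacts the cap, held the members called most often. Of its 7 genes 5 rose in NOD CD8+, 6 in B6 CD8+, 4 in NOD CD11b+ and 6 in B6 CD11b+ cDC, with medians of 0.38, 0.44, 0.39 and 0.40. Psma5 encodes one of these ring subunits. Its log2 level was 10.80, 10.92 and 10.70 in NOD CD8+ cDC after CpG-A, against 10.19, 10.33 and 10.33 after PBS, a difference of 0.52 ± 0.11 (adjusted p = 0.000487), where ± gives the SE from limma and n = 3 arrays a group here and throughout. It was 10.95, 11.06 and 11.06 in B6 CD8+ cDC after CpG-A, against 10.30, 10.35 and 10.24 after PBS, a difference of 0.73 ± 0.11 (adjusted p = 4.71e-06). Both strains were well separated, with no overlap between treatments. In the other subset it was 10.72, 10.71 and 10.49 in NOD CD11b+ cDC after CpG-A, against 9.47, 9.89 and 9.96 after PBS, a difference of 0.87 ± 0.11 (adjusted p = 1.80e-06), and 10.80, 10.89 and 10.59 in B6 CD11b+ cDC after CpG-A, against 9.89, 10.04 and 9.89 after PBS, a difference of 0.82 ± 0.11 (adjusted p = 1.72e-06). The treatments did not overlap there either, and 1 PBS array of NOD CD11b+ cDC was the lowest of all 24. On the second probe set of Psma5 the rises were 0.59, 0.60, 0.75 and 0.74 in NOD CD8+, B6 CD8+, NOD CD11b+ and B6 CD11b+ cDC, each of which passed.

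Psma2, another ring subunit, was 9.50, 9.28 and 9.06 in NOD CD11b+ cDC after CpG-A, against 8.45, 8.86 and 8.82 after PBS. B6 CD11b+ cDC had 9.52, 9.64 and 9.27 after CpG-A, against 9.14, 8.98 and 8.70 after PBS. It rose by 0.57 ± 0.14 (adjusted p = 0.00549) in NOD and by 0.53 ± 0.14 (adjusted p = 0.00406) in B6 CD11b+ cDC, the next highest differences of the ring there, and by 0.40 and 0.44 in NOD and B6 CD8+ cDC. In both strains the CpG-A arrays lay above all PBS arrays. Its call in NOD CD11b+ cDC ended without the first PBS array or without the first CpG-A array (highest adjusted p 0.0549). Psma4 was 9.83, 10.03 and 9.79 in NOD CD11b+ cDC after CpG-A, against 9.29, 9.62 and 9.49 after PBS, and Psma7 was 10.99, 11.02 and 10.99 in NOD CD11b+ cDC after CpG-A, against 10.51, 10.66 and 10.68 after PBS. Neither gene overlapped between treatments there. Psma4 rose by 0.40 in NOD CD8+, 0.37 in B6 CD8+, 0.41 in NOD CD11b+ and 0.40 in B6 CD11b+ cDC, and Psma7 by 0.38, 0.46, 0.39 and 0.40 in the same order. Psma1 passed the test in CD8+ cDC only, with 0.37 in NOD and 0.53 in B6 mice, against 0.29 and 0.25 in CD11b+ cDC, and the interaction of subset and CpG-A did not pass (adjusted p = 0.798 in NOD, 0.241 in B6). Psma6 rose in B6 mice by 0.23 in CD8+ and 0.28 in CD11b+ cDC. Psma3, a further ring subunit, was 10.89, 11.20 and 11.08 in NOD CD8+ cDC after CpG-A, against 10.94, 10.99 and 10.99 after PBS. The levels in B6 CD8+ cDC were 11.18, 11.13 and 11.13 after CpG-A, against 11.06, 10.96 and 11.02 after PBS. In NOD CD11b+ cDC it was 10.85, 10.86 and 10.82 after CpG-A, against 10.57, 10.85 and 10.69 after PBS. None of these differences, 0.08, 0.14 and 0.15, passed, and its rise of 0.20 in B6 CD11b+ cDC ended under 9 of 15 alternatives. Psma3 has 3 probe sets, and those not used gave 0.20 (limma adjusted p = 0.0499) and 0.19 (limma adjusted p = 0.0524) in B6 CD11b+ cDC.

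Fewer genes of the beta rings, which hold the proteolytic sites, passed the test. Of the 3 catalytic subunit genes 1 rose in NOD CD8+, 2 in B6 CD8+, 0 in NOD CD11b+ and 2 in B6 CD11b+ cDC. Psmb5 encodes the subunit with chymotrypsin-like activity, the target of the drug bortezomib. It stood at 9.37, 9.96 and 9.92 in NOD CD8+ cDC after CpG-A, against 9.54, 9.89 and 10.04 after PBS. After CpG-A it was 9.45, 9.86 and 9.84 in B6 CD8+ cDC, against 9.85, 9.86 and 9.85 after PBS. The first CpG-A array of each strain lay far below the other two, and the treatments overlapped. It stood at 9.31, 9.67 and 9.54 in NOD CD11b+ cDC after CpG-A, against 9.32, 9.39 and 9.60 after PBS. For B6 CD11b+ cDC the values were 9.80, 9.66 and 9.68 after CpG-A, against 9.81, 9.55 and 9.59 after PBS, again with overlap. The differences were -0.07, -0.14, 0.07 and 0.06, none of which passed the test (lowest adjusted p 0.443), and the SE of 0.15 leaves 95% intervals of about ± 0.309.

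Psmb6, the caspase-like subunit, was 10.23, 10.74 and 10.49 in NOD CD8+ cDC after CpG-A, against 10.18, 10.30 and 10.38 after PBS. CpG-A arrays of B6 CD8+ cDC read 10.46, 10.57 and 10.62, against 10.32, 10.27 and 10.18 on the PBS arrays. The NOD groups overlapped and the B6 groups did not. The level was 10.15, 10.23 and 10.22 in NOD CD11b+ cDC after CpG-A, against 9.76, 10.03 and 10.04 after PBS. B6 CD11b+ cDC had 10.43, 10.45 and 10.36 after CpG-A, against 10.12, 10.15 and 10.05 after PBS. Neither of these pairs overlapped. Psmb6 rose in B6 mice, by 0.29 ± 0.10 (adjusted p = 0.0172) in CD8+ and 0.31 ± 0.10 (adjusted p = 0.0188) in CD11b+ cDC, and differed by 0.20 and 0.26 in NOD mice. Psmb7, the trypsin-like subunit, was 10.51, 10.90 and 10.67 in NOD CD8+ cDC after CpG-A, against 10.23, 10.35 and 10.57 after PBS. The levels in B6 CD8+ cDC were 10.47, 10.73 and 10.61 after CpG-A, against 10.26, 10.32 and 10.30 after PBS. Here too the NOD groups overlapped and the B6 groups did not. The level was 10.13, 10.16 and 9.95 in NOD CD11b+ cDC after CpG-A, against 9.49, 9.88 and 9.90 after PBS. After CpG-A it was 10.34, 10.36 and 10.16 in B6 CD11b+ cDC, against 9.92, 10.08 and 9.73 after PBS. CD11b+ groups were again apart. Psmb7 rose by 0.31 ± 0.12 (adjusted p = 0.0422), 0.31 ± 0.12 (adjusted p = 0.0304) and 0.38 ± 0.12 (adjusted p = 0.0171) in NOD CD8+, B6 CD8+ and B6 CD11b+ cDC, and differed by 0.32 in NOD CD11b+ cDC (adjusted p = 0.0816, and 0.0374 with the replicate block). All of these calls of Psmb6 and Psmb7 ended under centring on the median of all probe sets and under quantile normalization, with the largest adjusted p at 0.299 for Psmb6 and 0.205 for Psmb7. Of the 4 beta genes whose products have no proteolytic site, 1 rose in 1 kind of cells, Psmb4 in B6 CD11b+ cDC, by 0.33 ± 0.08 (adjusted p = 0.00209). Psmb4 was 10.70, 10.98 and 10.87 in NOD CD8+ cDC after CpG-A, against 10.60, 10.87 and 10.79 after PBS. For B6 CD8+ cDC the values were 10.89, 11.06 and 11.01 after CpG-A, against 10.98, 10.95 and 10.86 after PBS. In NOD CD11b+ cDC it was 10.80, 10.75 and 10.71 after CpG-A, against 10.50, 10.58 and 10.62 after PBS, and none of these 3 differences passed. Psmb2 was 10.11, 10.46 and 10.42 in B6 CD11b+ cDC after CpG-A, against 10.13, 10.15 and 9.95 after PBS. It differed by 0.26, 0.17, 0.32 and 0.25 in NOD CD8+, B6 CD8+, NOD CD11b+ and B6 CD11b+ cDC without passing, and with the replicate block its adjusted p was 0.0212 and 0.0149 in NOD CD8+ and NOD CD11b+ cDC. The 8 differences of Psmb1 and Psmb3 lay between -0.13 and 0.22 on the probe sets used, with both signs present for each. A second probe set of Psmb3 gave -0.04, -0.27, 0.21 and 0.25 in NOD CD8+, B6 CD8+, NOD CD11b+ and B6 CD11b+ cDC, none of which passed.

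Promoter windows, 250 bases before to 50 after the annotated start, were set beside these differences because Nfe2l1 acts through a short promoter element. RefSeq windows of the build GRCm38.p6 matched 29 of 36 members, 28 of them tested. The letters TGACNNNGC, the core of the antioxidant response element to which Nfe2l1 and Nfe2l2 bind, stood on either strand in 5 of 29 members, or 17.2%, against 14.0% of the 27025 genes with such a window. The genes were Psmc6, called higher in all 4 kinds of cells, Psmd12, called in 3, Psmb6, called in 2, and Psmb5 and Psmd9, called in none. The window of an ATPase that rose throughout and those of a pair of catalytic subunits that differed in their calls are shown, with the matched letters in capitals. They lie at chr14:45329574-45329873 on the plus strand, chr11:70525107-70525406 on the plus strand and chr14:54617946-54618245 on the minus strand.
Psmc6: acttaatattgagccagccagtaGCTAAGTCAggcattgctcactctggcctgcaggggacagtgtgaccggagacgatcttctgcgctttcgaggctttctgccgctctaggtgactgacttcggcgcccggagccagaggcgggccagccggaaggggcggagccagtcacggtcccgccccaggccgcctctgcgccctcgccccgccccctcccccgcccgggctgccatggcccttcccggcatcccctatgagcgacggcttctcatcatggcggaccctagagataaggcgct
Psmb6: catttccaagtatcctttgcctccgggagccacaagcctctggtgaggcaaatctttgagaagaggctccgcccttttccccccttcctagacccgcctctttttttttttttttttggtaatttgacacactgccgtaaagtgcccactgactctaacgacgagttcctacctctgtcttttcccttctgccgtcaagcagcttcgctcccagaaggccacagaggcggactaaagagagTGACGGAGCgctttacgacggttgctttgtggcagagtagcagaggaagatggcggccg
Psmb5: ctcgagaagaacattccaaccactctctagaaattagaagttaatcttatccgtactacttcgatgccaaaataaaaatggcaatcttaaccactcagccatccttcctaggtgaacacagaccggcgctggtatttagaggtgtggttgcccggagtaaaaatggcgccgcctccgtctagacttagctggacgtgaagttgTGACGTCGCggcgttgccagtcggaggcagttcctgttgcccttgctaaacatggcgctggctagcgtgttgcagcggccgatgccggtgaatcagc
The match begins 227 bases before the start in Psmc6, on the opposite strand, and 9 and 47 bases before it in Psmb6 and Psmb5. The letters CCAAT, bound by NF-Y, stood in 12 of 29 members, or 41.4%, against 41.1% of the 27025 genes with such a window. Both strands were searched for each, no matches of the 2 motifs overlap in the windows shown, and a match describes letters only, not a bound site.

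Among the 6 ATPase genes of the base, whose products unfold substrates, 4 rose in NOD CD8+, 5 in B6 CD8+, 1 in NOD CD11b+ and 5 in B6 CD11b+ cDC. Psmc6, whose promoter is shown above, was 8.86, 9.05 and 8.68 in NOD CD8+ cDC after CpG-A, against 8.60, 8.44 and 8.46 after PBS. CpG-A arrays of B6 CD8+ cDC read 9.12, 9.16 and 9.08, against 8.70, 8.49 and 8.34 on the PBS arrays. Neither pair of groups overlapped. The level was 8.76, 8.67 and 8.53 in NOD CD11b+ cDC after CpG-A, against 7.84, 8.37 and 8.35 after PBS. B6 CD11b+ cDC had 8.68, 8.85 and 8.63 after CpG-A, against 8.20, 8.25 and 8.22 after PBS. It rose by 0.36 ± 0.13 (adjusted p = 0.0285), 0.61 ± 0.13 (adjusted p = 0.000339), 0.47 ± 0.13 (adjusted p = 0.0139) and 0.50 ± 0.13 (adjusted p = 0.00364) in that order of cells. No CpG-A array lay within the PBS range of its cells. Its calls in NOD mice ended in a fit of only the groups compared and with any of several arrays left out (highest adjusted p 0.138 in CD8+ and 0.134 in CD11b+ cDC). Psmc4 was 8.94, 9.30 and 9.06 in NOD CD8+ cDC after CpG-A, against 8.50, 8.60 and 8.59 after PBS, the largest rise of an ATPase in these cells at 0.54 ± 0.12 (adjusted p = 0.00143). Psmc1 was 9.16, 9.49 and 9.29 in B6 CD8+ cDC after CpG-A, against 8.69, 8.80 and 8.66 after PBS. It rose by 0.33, 0.60 and 0.39 in NOD CD8+, B6 CD8+ and B6 CD11b+ cDC. It differed by 0.29 in NOD CD11b+ cDC on the probe set used and by 0.09 on its second one, neither of which passed. Psmc5 rose by 0.49, 0.42 and 0.37 in the same 3 kinds of cells, and Psmc2 by 0.52 and 0.39 in B6 CD8+ and B6 CD11b+ cDC. Psmc3 was the ATPase gene without a call, with differences between 0.06 and 0.18.

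The 3 other genes of the base encode the large scaffolds Psmd1 and Psmd2, the second of which docks shuttle factors that deliver substrates, and the ubiquitin receptor Psmd4. All 3 rose in CD8+ cDC of both strains, and 1 of 3 rose in CD11b+ cDC of each strain. Psmd1 was 9.42, 9.40 and 9.32 in NOD CD8+ cDC after CpG-A, against 8.99, 8.79 and 8.72 after PBS. The levels in B6 CD8+ cDC were 9.44, 9.43 and 9.33 after CpG-A, against 8.71, 8.76 and 8.64 after PBS. The gap between treatments was larger than the range within any of these 4 groups. It rose by 0.55 ± 0.09 (adjusted p = 7.39e-05) in NOD and 0.70 ± 0.09 (adjusted p = 1.39e-06) in B6 CD8+ cDC. The level was 8.55, 8.63 and 8.66 in NOD CD11b+ cDC after CpG-A, against 8.42, 8.30 and 8.57 after PBS. After CpG-A it was 8.79, 8.79 and 8.90 in B6 CD11b+ cDC, against 8.60, 8.39 and 8.46 after PBS, differences of 0.18 ± 0.09 (adjusted p = 0.223) and 0.34 ± 0.09 (adjusted p = 0.00557). The interaction of subset and CpG-A was 0.37 ± 0.13 (adjusted p = 0.104) in NOD and 0.36 ± 0.13 (adjusted p = 0.0804) in B6 mice. Psmd2 rose by 0.41 and 0.43 in NOD and B6 CD8+ cDC. Its 2 probe sets disagreed in CD11b+ cDC, where the one used gave 0.30 ± 0.10 (adjusted p = 0.0303) in NOD and 0.23 ± 0.10 (adjusted p = 0.0627) in B6 mice, and the other gave 0.20 ± 0.10 (adjusted p = 0.214) and 0.37 ± 0.10 (adjusted p = 0.00514). Psmd4 rose by 0.26 and 0.30 in NOD and B6 CD8+ cDC, with the NOD call ended under 10 of 15 alternatives (highest adjusted p 0.170), and differed by 0.16 and 0.01 in NOD and B6 CD11b+ cDC.

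The lid held both the largest rises in CD8+ cDC and several genes without a call. Of its 8 genes 5 rose in NOD CD8+, 5 in B6 CD8+, 2 in NOD CD11b+ and 5 in B6 CD11b+ cDC. Psmd7 encodes the inactive partner of the deubiquitinase Psmd14. It was 9.01, 9.34 and 8.90 in NOD CD8+ cDC after CpG-A, against 8.37, 8.55 and 8.34 after PBS. For B6 CD8+ cDC the values were 9.05, 9.38 and 9.21 after CpG-A, against 8.28, 8.43 and 8.35 after PBS. The lowest CpG-A array exceeded the highest PBS array by a clear margin in both strains, and the rises were 0.66 ± 0.14 (adjusted p = 0.000654) in NOD and 0.86 ± 0.14 (adjusted p = 1.57e-05) in B6 mice. The level was 8.37, 8.50 and 8.29 in NOD CD11b+ cDC after CpG-A, against 7.70, 7.99 and 8.29 after PBS. CpG-A arrays of B6 CD11b+ cDC read 8.51, 8.79 and 8.60, against 8.13, 7.82 and 8.02 on the PBS arrays. It rose by 0.64 ± 0.14 (adjusted p = 0.000761) in B6 mice, and in NOD mice, where 1 PBS array reached the level of the lowest CpG-A array, it differed by 0.39 ± 0.14 (adjusted p = 0.0601, and 0.0346 with the replicate block).

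Psmd14, the enzyme that cuts the ubiquitin chain from the substrate as it enters, was 9.76, 9.72 and 9.54 in NOD CD8+ cDC after CpG-A, against 9.33, 9.26 and 9.25 after PBS. B6 CD8+ cDC had 9.64, 9.80 and 9.61 after CpG-A, against 9.37, 9.27 and 9.22 after PBS. Treatments stood apart in both strains. The level was 9.24, 9.26 and 9.30 in NOD CD11b+ cDC after CpG-A, against 8.94, 8.95 and 9.07 after PBS. The levels in B6 CD11b+ cDC were 9.39, 9.38 and 9.33 after CpG-A, against 8.99, 8.96 and 8.99 after PBS. No CpG-A array fell within the PBS range of its cells, and the gene rose by 0.39 ± 0.08 (adjusted p = 0.000503), 0.40 ± 0.08 (adjusted p = 0.000211), 0.28 ± 0.08 (adjusted p = 0.0195) and 0.39 ± 0.08 (adjusted p = 0.000531). The NOD CD11b+ call ended under 6 of 15 alternatives (highest adjusted p 0.0741) and the NOD CD8+ call in a fit of only the groups compared (0.0512). Psmd11, which braces the lid against the core, was 9.11, 9.06 and 8.98 in NOD CD8+ cDC after CpG-A, against 8.50, 8.45 and 8.57 after PBS. After CpG-A it was 9.10, 9.12 and 9.0 in B6 CD8+ cDC, against 8.35, 8.33 and 8.26 after PBS. It rose by 0.54 ± 0.09 (adjusted p = 6.39e-05) in NOD and 0.76 ± 0.09 (adjusted p = 2.84e-07) in B6 CD8+ cDC and by 0.46 ± 0.09 (adjusted p = 0.000364) in B6 CD11b+ cDC, against 0.13 ± 0.09 (adjusted p = 0.397) in NOD CD11b+ cDC. The B6 CD11b+ levels were 8.40, 8.66 and 8.50 after CpG-A, against 8.20, 8.06 and 7.94 after PBS. Psmd3, a scaffold subunit of the lid, was 8.35, 8.64 and 8.47 in NOD CD8+ cDC after CpG-A, against 7.78, 8.01 and 8.10 after PBS. The treatments did not overlap for either gene in these cells. Psmd3 rose by 0.53, 0.44 and 0.30 and Psmd12 by 0.29, 0.38 and 0.35 in NOD CD8+, B6 CD8+ and B6 CD11b+ cDC. Psmd8 showed another order, with 10.38, 10.45 and 10.22 in NOD CD11b+ cDC after CpG-A, against 9.73, 10.12 and 9.99 after PBS, a rise of 0.40 ± 0.11 (adjusted p = 0.0166) that ended under quantile normalization, without the first PBS array and without the first or the second CpG-A array (highest adjusted p 0.123). In B6 CD11b+ cDC, where it was 10.10, 10.33 and 10.22 after CpG-A, against 10.23, 10.22 and 9.99 after PBS, the groups overlapped, and its differences in the other 3 kinds of cells lay between -0.01 and 0.09. Psmd6 and Psmd13 had no call, with differences between -0.27 and 0.19.

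The 3 chaperones that assemble the base and leave the finished cap did not move together. Psmd5 was the only member with a lower call. It was 5.66, 5.86 and 6.23 in B6 CD8+ cDC after CpG-A, against 6.61, 6.39 and 6.62 after PBS, with every CpG-A array below every PBS array, and fell by 0.62 ± 0.17 (adjusted p = 0.00425). The medians of annotated probe sets on these CpG-A arrays were 5.85, 5.79 and 5.82. The first Psmd5 level thus lay below its array's median and the second just above. In NOD CD8+ cDC Psmd5 was 5.90, 6.59 and 6.72 after CpG-A, against 6.70, 6.67 and 6.96 after PBS, with 1 low CpG-A array, and the difference of -0.37 ± 0.17 (adjusted p = 0.0974) did not pass. The level was 6.63, 6.58 and 6.53 in NOD CD11b+ cDC after CpG-A, against 6.54, 6.99 and 6.83 after PBS. For B6 CD11b+ cDC the values were 6.24, 6.12 and 6.22 after CpG-A, against 6.81, 6.58 and 6.42 after PBS. The differences of -0.21 ± 0.17 (adjusted p = 0.501) and -0.41 ± 0.17 (adjusted p = 0.0656) did not pass, although the B6 groups did not overlap. Psmd10, also known as the oncoprotein gankyrin, moved the other way. It was 8.73, 8.90 and 8.74 in B6 CD11b+ cDC after CpG-A, against 8.39, 8.40 and 7.79 after PBS, and rose by 0.60 ± 0.16 (adjusted p = 0.00524) there, a call that ended without the third PBS array, the lowest of its group (adjusted p = 0.0598), and by 0.43 ± 0.16 (adjusted p = 0.0261) in B6 CD8+ cDC, a call that ended under 5 alternatives (highest adjusted p 0.117), while it differed by 0.30 and 0.45 in NOD CD8+ and NOD CD11b+ cDC. Psmd9 differed by -0.0012, -0.20, 0.18 and 0.34 in NOD CD8+, B6 CD8+, NOD CD11b+ and B6 CD11b+ cDC without a call. The remaining members are known from single tissues, Psma8 as the alpha subunit of testis and Psmb11 as the beta subunit of thymic cortical epithelium. Their probe sets averaged 5.16 and 5.05, below the array median, and they were not tested.

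Several other genes of the pathway showed larger differences than the constitutive subunits, in both directions. Nfe2l1 was 10.58, 10.67 and 10.11 in NOD CD8+ cDC after CpG-A, against 9.07, 9.02 and 8.98 after PBS. CpG-A arrays of B6 CD8+ cDC read 10.64, 10.78 and 10.66, against 8.99, 9.08 and 8.96 on the PBS arrays. The CpG-A arrays stood far above the PBS arrays in both strains. The level was 9.73, 9.84 and 9.61 in NOD CD11b+ cDC after CpG-A, against 8.80, 8.84 and 9.02 after PBS. B6 CD11b+ cDC had 10.09, 9.97 and 10.07 after CpG-A, against 8.84, 8.64 and 8.85 after PBS. No arrays of the 2 treatments overlapped, and the gene rose by 1.43 ± 0.11 (adjusted p = 1.22e-09), 1.68 ± 0.11 (adjusted p = 3.55e-11), 0.84 ± 0.11 (adjusted p = 7.04e-06) and 1.27 ± 0.11 (adjusted p = 5.67e-09). The list drawn up for the control of proteasome genes had 5 measured genes, among them the proteasome-associated stress gene Zfand2a. Of these, 3, 4, 1 and 1 rose in NOD CD8+, B6 CD8+, NOD CD11b+ and B6 CD11b+ cDC. Vcp, the ATPase that extracts ubiquitylated proteins and is needed to activate Nfe2l1, rose by 0.47 in NOD and 0.71 in B6 CD8+ cDC, against -0.06 and 0.18 without a call in CD11b+ cDC. Ngly1, the glycanase that also processes Nfe2l1, fell by 0.29, 0.59 and 0.45 in NOD CD8+, B6 CD8+ and B6 CD11b+ cDC. Among the 5 measured chaperones of core assembly 2, 3, 0 and 1 fell in the same order of cells as above, and Psmg2, which pairs with Psmg1 to guide alpha ring assembly, fell by 0.89, 1.54 and 0.83 in the first, second and last of them. Psmg4 rose by 0.43, 0.73 and 0.49 in those 3. In NOD CD8+ cDC the calls of Psmg2, Psmg4 and Ngly1 ended under 2, 5 and 6 of 15 alternatives (highest adjusted p 0.108, 0.114 and 0.217), and that of Psmg2 in B6 CD11b+ cDC without the first array of either treatment (0.0831). Pomp, the maturation factor of the core, differed by -0.28 ± 0.11 (adjusted p = 0.0384) in B6 CD8+ cDC, a call lost under 8 of 15 alternatives, and passed in no other cells. Of 9 genes of peptide loading, 5, 5, 5 and 6 rose and 0, 2, 1 and 0 fell, among the risers Tapbpl, a peptide editor, by 1.30, 1.67, 1.30 and 1.76. Of the 4 measured shuttle factors, which carry ubiquitylated proteins to the cap, 1, 0, 0 and 2 fell and none rose. Of the 3 measured further genes of cap-bound subunits and deubiquitinases, 1 fell in B6 CD8+ cDC and no other call was made, and Uba6, an enzyme that activates ubiquitin, fell by 0.37 and 0.59 in NOD and B6 CD8+ cDC.

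**Figure D3:**
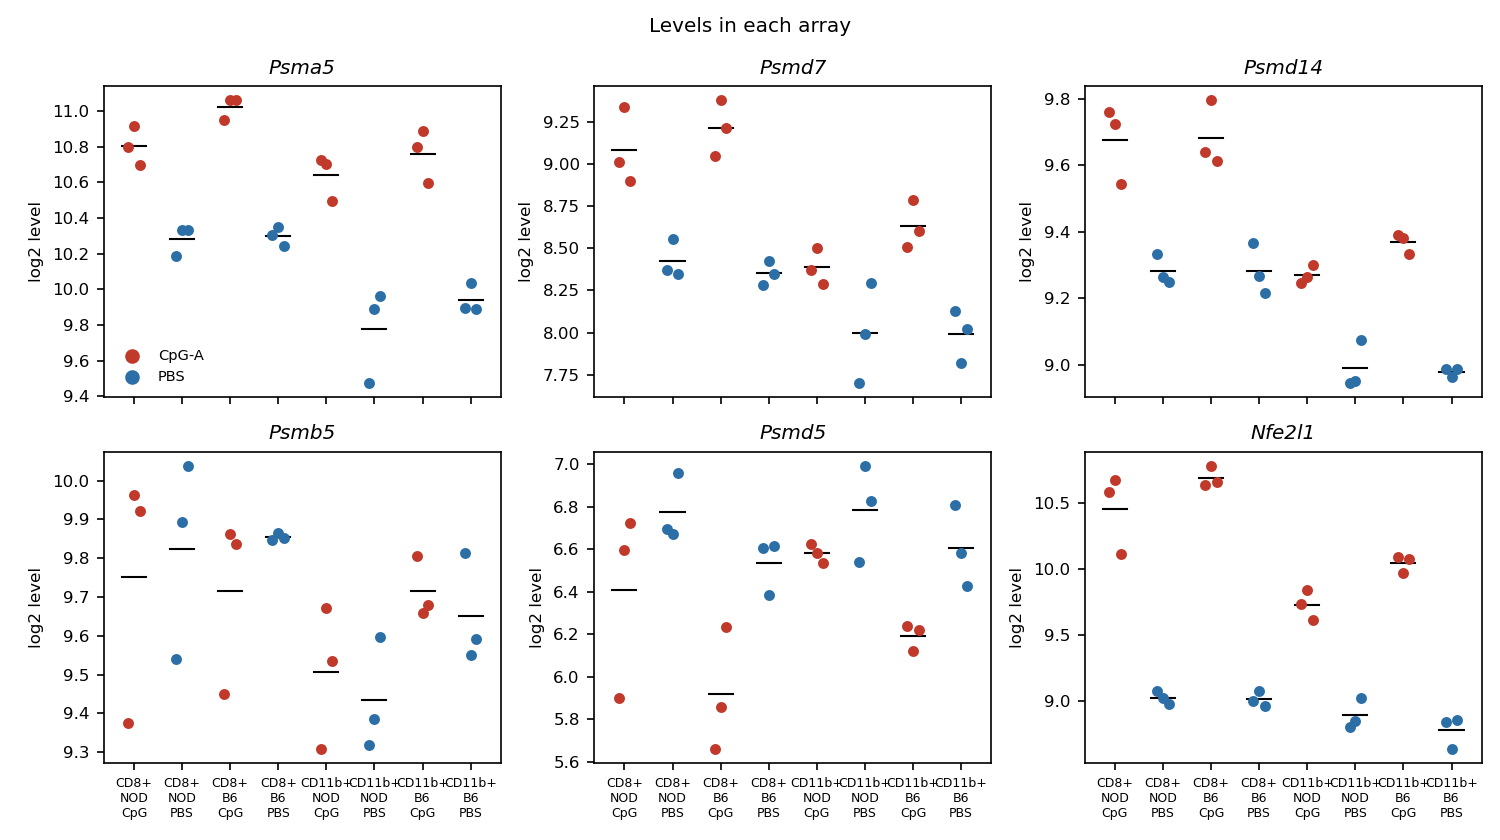
Log2 level on each of the 24 arrays for 5 members and Nfe2l1, with CpG-A in red, PBS in blue and lines at group means of 3 arrays. Psma5, Psmd14 and Nfe2l1 show no overlap between treatments in any kind of cell, Psmd7 overlaps only in NOD CD11b+ cDC, Psmb5 overlaps in all 4, and the CpG-A arrays of Psmd5 lie below all PBS arrays in both B6 pairs. Vertical axes differ between panels.

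The interferon-induced catalytic subunits and the constitutive ones they replace changed unequally. Psmb8, Psmb9 and Psmb10 rose in all 4 kinds of cells, Psmb8 by 0.49, 0.69, 0.79 and 0.93, Psmb9 by 0.23, 0.42, 0.69 and 0.83, and Psmb10 by 0.85, 1.18, 1.28 and 1.36 in NOD CD8+, B6 CD8+, NOD CD11b+ and B6 CD11b+ cDC. The genes of the activator cap induced by interferon rose too, Psme1 by 0.58, 0.70, 0.82 and 1.01, and Psme2 by 0.85, 1.13, 1.02 and 1.49. With the other activators and the inhibitor, 3, 4, 3 and 3 of 5 genes rose, and Psme3, the nuclear activator, fell by 0.72 in B6 CD8+ cDC, the one lower call of this list. The log2 ratio of Psmb10 to Psmb7 on the same array was 0.82, 0.79 and 0.75 in NOD CD11b+ cDC after CpG-A, against -0.06, -0.31 and -0.15 after PBS, and 0.80, 0.60 and 1.02 in B6 CD11b+ cDC after CpG-A, against 0.01, -0.42 and -0.12 after PBS. Probe sets differ in scale, so only the change of such a ratio between groups was read. The change was 0.54 ± 0.06, 0.87 ± 0.11, 0.96 ± 0.08 and 0.98 ± 0.18 (SE, n = 3 a group) for Psmb10 over Psmb7 in NOD CD8+, B6 CD8+, NOD CD11b+ and B6 CD11b+ cDC. For Psmb8 over Psmb5 it was 0.56 ± 0.22, 0.83 ± 0.12, 0.72 ± 0.16 and 0.87 ± 0.06, and for Psmb9 over Psmb6 0.02 ± 0.13, 0.13 ± 0.06, 0.43 ± 0.11 and 0.52 ± 0.07. The 2 treatments did not overlap in 11 of the 12 ratios, which gave p = 0.1 in a two-sided exact permutation test, the smallest that 3 arrays against 3 allow. The exception was Psmb9 over Psmb6 in NOD CD8+ cDC, at 2.08, 1.67 and 1.88 after CpG-A, against 1.91, 1.87 and 1.78 after PBS, with an exact p of 0.9. With 12 ratios the Benjamini-Hochberg adjusted values are no lower than these.

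Few members passed the test between NOD and B6 cells. In CD8+ cDC 0 of 34 members passed between NOD and B6 mice after CpG-A, where 20.2% of all tested genes did, and 0 of 34 after PBS, where 3.62% did. By limma's unadjusted p under 0.05 the counts were 2 after CpG-A and 2 after PBS. In CD11b+ cDC 1 member was lower in NOD after CpG-A, where 9.22% of all tested genes were, and 0 passed after PBS, where 5.59% did in either direction, with 7 and 1 members by the unadjusted p. That member was Psmb4, at 10.80, 10.75 and 10.71 in NOD and 11.06, 10.96 and 10.99 in B6 cells, a difference of -0.25 ± 0.08 (adjusted p = 0.0265) that ended under 6 of 15 alternatives (highest adjusted p 0.192). After CpG-A every NOD array lay below every B6 array for 11 members in CD11b+ cDC, and above for 1. Of the 11228 tested genes 1878 and 2714 did so. In CD8+ cDC after CpG-A these counts were 3 and 0 members, against 1327 and 1363 of all tested genes. After PBS they were 1 and 4 members in CD8+ cDC, against 1009 and 1208 genes, and 2 and 1 in CD11b+ cDC, against 1330 and 1314. The medians of the members were -0.01 after CpG-A and 0.01 after PBS in CD8+ cDC, and -0.06 and -0.04 in CD11b+ cDC, against 0.04, 0.01, 0.03 and -0.0015 over all tested genes. The median 95% interval of a member was ± 0.224, and the widest reach ran from -0.59 for Psmd9 in CD8+ cDC after PBS to 0.85 for Psmd5 in CD8+ cDC after CpG-A, so differences up to those sizes remain possible for single genes.

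The choice of scaling bore on the strain comparison after CpG-A. In CD8+ cDC, where same-numbered arrays of the strains deviate together, the replicate block called Psmd5 higher in NOD mice (difference 0.49, adjusted p = 0.0370, against 0.0509 without the block) and Psma1 lower (difference -0.27, adjusted p = 0.0444, against 0.0782). Centring on the median of the tested genes shifted all genes by -0.12 in CD8+ and -0.09 in CD11b+ cDC and called 5 members lower in NOD CD8+ and 9 lower in NOD CD11b+ cDC, against 0 and 1. Under it all tested genes split into 936 higher and 1452 lower in CD8+ cDC, against 1390 and 880, and into 1259 and 1412 in CD11b+ cDC, against 1565 and 1035. The response itself did not pass as different between strains for any member. The interaction of strain and CpG-A called 0 of 34 in CD8+ cDC, where 4.02% of all tested genes passed, and 0 of 34 in CD11b+ cDC, where 4.38% did, with 1 member each at an unadjusted p under 0.05, Psmc2 at -0.35 and Psmd11 at -0.33. The 95% interval of an interaction was ± 0.316 for the median member.

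CD8+ cDC carried more of many of these transcripts than CD11b+ cDC. In NOD mice 16 members were higher and 2 lower in CD8+ cDC after CpG-A, where 14.5% of all tested genes were higher and 24.1% lower, and 15 were higher and 0 lower after PBS, where 10.6% were higher and 11.2% lower. In B6 mice 12 were higher and 1 lower after CpG-A, where 12.8% were higher and 24.5% lower, and 7 were higher and 0 lower after PBS, where 9.57% were higher and 12.2% lower. The medians over the members were 0.25, 0.27, 0.22 and 0.20, against -0.07, -0.01, -0.07 and -0.02 over all tested genes. Psma3, Psma7, Psmb7, Psmd12 and Psmd14 were higher in CD8+ cDC in all 4 of these comparisons. For Psmb7 the levels after PBS were 10.23, 10.35 and 10.57 in CD8+ and 9.49, 9.88 and 9.90 in CD11b+ cDC of NOD mice, a difference of 0.62 ± 0.12 (adjusted p = 0.000440). In B6 mice they were 10.26, 10.32 and 10.30 and 9.92, 10.08 and 9.73, a difference of 0.38 ± 0.12 (adjusted p = 0.0259) that ended under 6 of 15 alternatives. For Psmd14 they were 9.33, 9.26 and 9.25 and 8.94, 8.95 and 9.07 in NOD mice, a difference of 0.29 ± 0.08 (adjusted p = 0.0105), and 9.37, 9.27 and 9.22 and 8.99, 8.96 and 8.99 in B6 mice, a difference of 0.30 ± 0.08 (adjusted p = 0.00791). Subsets did not overlap for either gene in either strain. With the replicate block 18 and 18 members were higher in CD8+ cDC of NOD mice after CpG-A and after PBS, and 15 and 9 in B6 mice. All tested genes higher numbered 1764, 1356, 1565 and 1192 with the block, against 1624, 1192, 1441 and 1074 without it.

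After CpG-A the subset differences were largest for subunits of base and lid. Psmd1 stood at 9.42, 9.40 and 9.32 in CD8+ and 8.55, 8.63 and 8.66 in CD11b+ cDC of NOD mice, a difference of 0.77 ± 0.09 (adjusted p = 6.93e-07), and differed by 0.58 ± 0.09 (adjusted p = 4.30e-05) in B6 mice. Psmd7 stood at 9.01, 9.34 and 8.90 in CD8+ cDC, against 8.37, 8.50 and 8.29 in CD11b+ cDC, of NOD mice, a difference of 0.69 ± 0.14 (adjusted p = 0.000366), and differed by 0.58 ± 0.14 (adjusted p = 0.00221) in B6 mice. Psmd11 differed by 0.74 ± 0.09 (adjusted p = 7.89e-07) in NOD and 0.55 ± 0.09 (adjusted p = 5.11e-05) in B6 mice. Lower in CD8+ cDC were Psmd9, with differences of -0.40 in NOD and -0.39 in B6 mice, and Psmd8 in NOD mice, with -0.35, and these 3 calls ended under centring on the median of the tested genes, among other alternatives. The interaction of subset and CpG-A called 0 of 34 members in NOD mice, where 6.8% of all tested genes passed, and 0 of 34 in B6 mice, where 13.4% did, with 5 and 4 members at an unadjusted p under 0.05 in limma. With the replicate block it called 2 in NOD mice, Psmd11 at 0.41 (adjusted p = 0.0453) and Psmd8 at -0.41 (adjusted p = 0.0496), and with centring on the median of the tested genes 3 in each strain, Psmd1 and Psmd11 in both. All tested genes passing numbered 1141 in NOD mice with the block, and 789 in NOD and 1698 in B6 mice with that centring. The main fit gave 764 in NOD and 1502 in B6 mice. Under that centring all tested genes split into 2414 higher and 1930 lower between subsets after CpG-A in NOD mice, against 1624 and 2711, and into 2467 and 1841 in B6 mice, against 1441 and 2755, and the members called higher were 25 and 24. Without the first PBS array of NOD CD11b+ cDC, whose member mean was the lowest of all 24, 7 members rather than 15 were higher in CD8+ cDC of PBS-treated NOD mice, and without the second CpG-A array of NOD CD8+ cDC 10 rather than 16 were higher after CpG-A. In PBS-treated B6 mice 2 rather than 7 passed without the second CD8+ or the third CD11b+ array. Markers of other cells also differed between the subsets, given as the number called in NOD mice after CpG-A, NOD mice after PBS, B6 mice after CpG-A and B6 mice after PBS, in that order. Of 5 NK cell markers 3, 0, 5 and 3 were lower in CD8+ than in CD11b+ cDC and 0, 1, 0 and 0 higher. Higher in CD8+ cDC were 2, 1, 3 and 2 of 3 measured T cell markers, with medians of 1.08, 0.79, 0.93 and 0.59, and 3, 4, 1 and 2 of 4 pDC markers, with medians of 0.90, 1.29, 0.16 and 0.81, and none of either list was lower. Of 5 red pulp macrophage markers 2, 2, 1 and 0 were higher and 0, 0, 0 and 2 lower, and of 3 measured B cell markers 0, 1, 0 and 0 were higher and 1, 1, 1 and 1 lower. No neutrophil or erythroid marker tested passed between subsets. The part of these cells in the subset differences of the members was not tested.

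**Figure D4:**
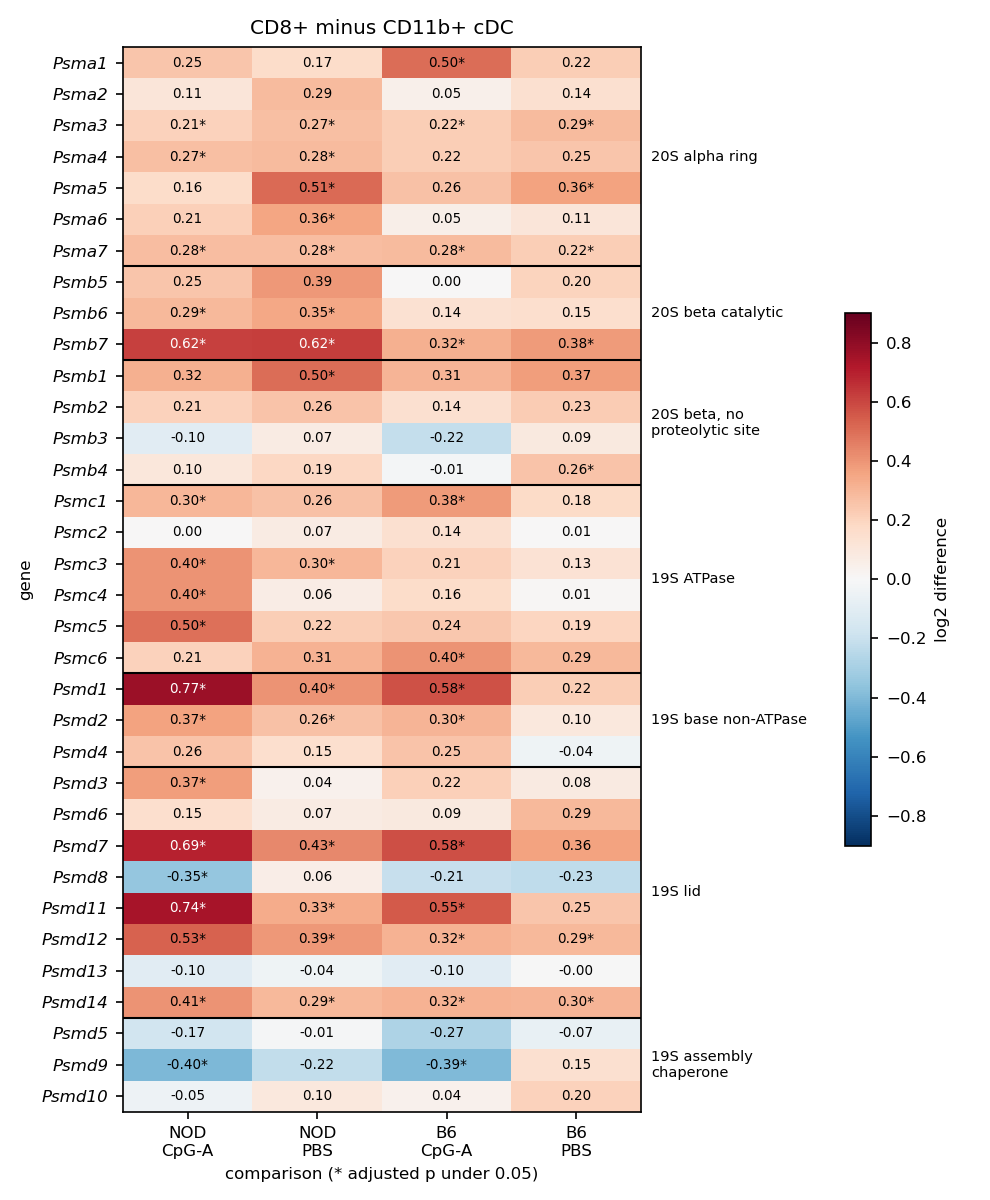
Log2 difference, CD8+ minus CD11b+ cDC, of each of the 34 tested genes in each strain and treatment (3 arrays a group), with genes in rows by role and stars at an adjusted p under 0.05. Most cells are red, that is higher in CD8+ cDC, with the darkest at Psmd1, Psmd11, Psmd7 and Psmb7 in NOD mice, and Psmd9 and Psmd8 blue after CpG-A.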

How the data were processed

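RNA of 24 sorted cell samples was amplified, labelled with biotin and hybridised to mouse expression arrays, per the labels' protocols. The labels name one array model, while the probe set identifiers match the annotation of a whole-transcript gene array, so the model is unsettled. The authors deposited 1 log2 value per probe set and array, made with RMA, which corrects background, normalizes by quantiles and summarises probes on the log2 scale, in Partek, per the submitters' processing notes. RMA forces similar distributions on all arrays, so levels are relative to the array's other genes. No spot intensities or detection calls were used here, and precision is limited by the 3 arrays a group. The genome build is not given in the sources used here.

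Of 23410 annotated probe sets 21789 had 1 gene symbol, 1621 had several and were left out, and 12146 further ones were not listed and were left out. The gene identifier was listed in RefSeq for 21698 of the 21789, and the symbol given there was used. A gene was tested where it exceeded the array's median over the 23410 annotated probe sets on at least 3 arrays. Group means of all 24 arrays were fitted with limma 3.58.1 in R 4.3.3 (lmFit, eBayes with trend, 16 residual degrees of freedom) and p-values adjusted by Benjamini-Hochberg over all tested genes of a comparison, at 0.05. The comparisons that share samples (subsets, treatments and strains use the same arrays) are not independent of each other. The fit was tested on simulated data.

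The members and the lists of other pathway genes and cell markers were chosen with earlier results of these data known. Values per array are given for up to 6 called members in each direction with the largest difference, for the catalytic subunits and for up to 2 members with the highest mean that did not pass. The labels do not say what a replicate number stands for. Same-numbered arrays deviated together in 8 of 12 pairs of groups, with correlations of their deviations from the group means between 0.105 and 0.544, a pairing taken from the data. The alternatives were no filter on low values, a filter at 12 arrays, averaging a gene's probe sets, centring on each array's median, quantile normalization, eBayes without trend, only the groups compared, the replicate block and each array left out. Centring on the median of the tested genes was added after the data were seen.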

Additional observations from a re-analysis of the deposited data

Results flagged for a closer look

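None of the 34 tested members met a criterion for a closer look. Among the other pathway genes, the response to CpG-A differed between subsets, by the interaction of subset and CpG-A in limma (CD8+ minus CD11b+ cDC, SE, n = 3 arrays a group), in 10 cases.

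Vcp responded more in CD8+ cDC in both strains, by 0.53 ± 0.10 (adjusted p = 0.00313) in NOD and 0.52 ± 0.10 (adjusted p = 0.00142) in B6 mice. Nfe2l1, which rose in both subsets, responded more in CD8+ cDC of NOD mice, by 0.59 ± 0.16 (adjusted p = 0.0261), with differences after CpG-A of 1.43 in CD8+ and 0.84 in CD11b+ cDC. Nfe2l2, a related transcription factor, differed by 0.76 ± 0.18 (adjusted p = 0.00650) in B6 mice, with 0.46 in CD8+ and -0.30 in CD11b+ cDC. Zfand2a, a proteasome-associated stress gene, differed by 0.74 ± 0.21 (adjusted p = 0.0227) in B6 mice, with 0.97 in CD8+ and 0.22 in CD11b+ cDC.

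Psmb9 responded less in CD8+ cDC in both strains, by -0.47 ± 0.09 (adjusted p = 0.00169) in NOD and -0.40 ± 0.09 (adjusted p = 0.00259) in B6 mice. Under centring on the median of the tested genes, added after the data were seen, these gave adjusted p-values of 0.0630 and 0.0866. Psme1 responded less in CD8+ cDC of B6 mice, by -0.31 ± 0.10 (adjusted p = 0.0397). In NOD mice Psme4, an activator, differed by -0.53 ± 0.14 (adjusted p = 0.0223), with -0.01 in CD8+ and 0.52 in CD11b+ cDC, and Psmf1, the inhibitor, by 0.67 ± 0.19 (adjusted p = 0.0386), with 0.64 in CD8+ and -0.03 in CD11b+ cDC. The interaction calls ended under 13 alternatives for Psme1, 12 for Psmf1, 8 for Nfe2l1 in NOD mice, 6 for Zfand2a and 5 for Psme4, and under 0 for Vcp and Nfe2l2, of 21 each.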

How the results depend on the processing

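Of 360 values under 9 alternatives, 318 stayed near the value first given. Medians made up 108 of the 360, of which 102 stayed near and none reversed in sign. The rest were counts of members, many of them 0 in the main fit. A count has no sign, so it could not reverse. The 42 that moved were the following. Centring on the median of the tested genes, added after the data were seen, raised the members' median difference after CpG-A to 0.62 in B6 CD8+, 0.444 in NOD CD8+ and 0.455 in B6 CD11b+ cDC and called 15 members higher in NOD CD11b+ cDC. It gave a median of -0.131 and 5 lower members for NOD against B6 CD8+ cDC after CpG-A and 9 lower for CD11b+ cDC. Between subsets it called 12 higher in B6 mice after PBS, 24 higher and 0 lower (median 0.389) in B6 mice after CpG-A and 25 higher and 0 lower (median 0.392) in NOD mice after CpG-A, and the interaction of subset and CpG-A called 3 in each strain. Under it all tested genes split into 979 higher and 719 lower for that interaction in B6 mice, against 656 and 846, into 441 and 348 in NOD mice, against 301 and 463, and into 219 and 293 for the interaction of strain and CpG-A in CD11b+ cDC, against 270 and 222. With the same centring, all tested genes higher between subsets in B6 mice after PBS numbered 1325, against 1074. After CpG-A in NOD CD11b+ cDC they numbered 1180, against 1089. Centring on the median of all probe sets called 2, 8 and 9 members higher between subsets in B6 mice after PBS, NOD mice after PBS and NOD mice after CpG-A, and 0 lower for NOD against B6 CD11b+ cDC after CpG-A. All tested genes so called numbered 923, 1056 and 1305 higher and 806 lower, against 1074, 1192 and 1624 higher and 1035 lower.

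A fit of only the groups compared called 2 members lower after CpG-A in B6 CD8+ cDC, 10 higher in NOD CD8+ cDC and 1 lower in B6 CD11b+ cDC. It called 1 higher for NOD against B6 CD11b+ cDC after CpG-A, 11 higher between subsets in B6 mice after PBS, 7 higher and 0 lower in NOD mice after CpG-A, and 1 in the interaction of subset and CpG-A in B6 mice. In the order given, all tested genes so called numbered 4029, 1169, 2876, 1689, 1414, 973 and 1581, and 2101. The main fit gave 4105, 1700, 2582, 1565, 1074, 1624 and 2711, and 1502. No filter on low values gave 1 lower after CpG-A in B6 CD11b+ cDC, 1 higher for NOD against B6 CD11b+ cDC after CpG-A, and 0 and 1 lower between subsets after CpG-A in B6 and NOD mice. All genes so called numbered 2443, 1459, 2612 and 2565 of 19938, against 2582, 1565, 2755 and 2711 of 11228. Quantile normalization gave 3 lower for NOD against B6 CD11b+ cDC after CpG-A, 0 and 1 lower between subsets after CpG-A in B6 and NOD mice, and 1 in the interaction of subset and CpG-A in NOD mice. Among all tested genes these calls numbered 1072, 2616, 2458 and 773, against 1035, 2755, 2711 and 764. eBayes without trend gave 0 lower for NOD against B6 CD11b+ cDC after CpG-A, and a filter on 12 of 24 arrays gave 1 higher for CD8+ cDC. Over all genes in each fit, 1015 were lower and 1338 higher, against 1035 and 1390. The cause of these moves was not tested.

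The replicate block called 16 members higher after CpG-A in NOD CD11b+ cDC, 1 higher and 1 lower for NOD against B6 CD8+ cDC after CpG-A, and 2 in the interaction of subset and CpG-A in NOD mice. All tested genes so called numbered 1242, 1745 and 1035, and 1141, against 1089, 1390 and 880, and 764. In pairs of groups whose same-numbered arrays did not all deviate together (correlations from -0.108 to 0.192) the block gave 22 members higher after CpG-A in B6 CD8+ and 24 in B6 CD11b+ cDC. All tested genes higher numbered 2437 and 1897 there, against 2370 and 1782. In these pairs the block moved no other count of members by over 1.5 times.

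With 1 array left out, the members higher after CpG-A numbered 17 to 22 in B6 CD8+, 13 to 19 in NOD CD8+, 15 to 21 in B6 CD11b+ and 3 to 12 in NOD CD11b+ cDC, and 0 to 1 were lower in NOD CD8+ cDC. For NOD against B6 after CpG-A, 0 to 1 were higher in CD8+ and 0 to 1 lower in CD11b+ cDC. Between subsets, 2 to 7 were higher in B6 mice after PBS, 0 to 1 lower in B6 mice after CpG-A, 7 to 16 higher in NOD mice after PBS, and 10 to 21 higher and 0 to 2 lower in NOD mice after CpG-A, and the interaction of subset and CpG-A in NOD mice called 0 to 1. With 3 arrays a group, the median 95% interval of ± 0.224 limits what a missed call can show.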
